A study of Mus musculus with 12 samples.

Results

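The unfolded protein and integrated stress genes are 32 genes, chosen by symbol, that carry out or govern the response to misfolded protein and to halted translation. All 32 were found on the array, each was read from the probe of its symbol with the highest mean signal, and all 32 were among the 33191 genes tested. By role they are 14 chaperones and foldases, 4 genes of endoplasmic reticulum (ER)-associated degradation, 3 sensors, 4 transcription factors and 7 targets of the integrated stress response. Of the 32 probes, 31 were well above background on all 12 arrays. The exception was Chac1, which was well above background on 6.

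The RNA came from bone marrow stem cells of male mice, sorted by flow cytometry as LSK SLAM cells (lineage-negative, Sca-1 and Kit positive cells gated on SLAM markers) after enrichment for Kit. The 4 groups held 3 mice each. Sham-operated mice were the controls, and the labels name no injection for them. POL5551, a blocker of the chemokine receptor CXCR4, was infused without interruption at 100 mg/kg/day for 2 weeks, and cells were taken on day 14. Granulocyte colony-stimulating factor (G-CSF) was injected at 100 ug/kg every 12 h, 4 times in the mice taken on day 2 and 9 times in those taken on day 5, and the labels name no operation for these mice. The infusion and the injections thus differ in route and length as well as in agent, and the labels give neither strain nor age.

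Protein that enters the ER is folded there by chaperones such as Hspa5 (BiP) and by disulfide isomerases. When unfolded protein builds up, the sensors Ern1 (IRE1), Eif2ak3 (PERK) and Atf6 raise the amount of chaperones and of the machinery that exports and degrades misfolded protein, in part through the factor Xbp1. PERK and related kinases also phosphorylate the initiation factor eIF2, which slows translation in general while favouring that of Atf4, whose targets include amino acid synthesis genes and Ddit3 (CHOP). Blood stem cells are known to make protein slowly and to be sensitive to its misfolding.

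Promoters of chaperone genes are known for the ER stress response element (ERSE), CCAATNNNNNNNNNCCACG, and its short form ERSE-II, ATTGGNCCACG. RefSeq promoters (GRCm38.p6, 250 bases before to 50 after each start) were given for 29 of the 32 genes, and exact matches were sought on both strands. The full ERSE stood in 39 of 32851 promoters, 0.119%, and 8 of the 29 genes were among them. The stretches around it are shown because they mark the genes by a feature that expression did not choose. Capitals mark the match, and the matches that begin with CGTGG lie on the strand opposite to the gene.
Hspa5, chr2:34772005-34772063, gene on the plus strand, match starting at -65 from the gene's start: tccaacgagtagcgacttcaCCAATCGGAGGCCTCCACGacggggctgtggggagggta
Hsp90b1, chr10:86705618-86705676, gene on the minus strand, match starting at -212 from the gene's start: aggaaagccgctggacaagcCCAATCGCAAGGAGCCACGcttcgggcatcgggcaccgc
Hsp90b1, chr10:86705513-86705571, gene on the minus strand, match starting at -107 from the gene's start: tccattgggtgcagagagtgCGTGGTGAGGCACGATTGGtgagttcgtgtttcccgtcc
Calr, chr8:84847055-84847113, gene on the minus strand, match starting at -162 from the gene's start: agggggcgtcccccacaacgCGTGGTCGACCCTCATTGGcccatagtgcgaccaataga
Canx, chr11:50325780-50325838, gene on the minus strand, match starting at -145 from the gene's start: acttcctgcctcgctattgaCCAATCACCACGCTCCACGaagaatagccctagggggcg
Pdia6, chr12:17266471-17266529, gene on the plus strand, match starting at -98 from the gene's start: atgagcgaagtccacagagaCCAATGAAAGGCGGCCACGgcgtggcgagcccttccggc
Creld2, chr15:88819500-88819558, gene on the plus strand, match starting at -126 from the gene's start: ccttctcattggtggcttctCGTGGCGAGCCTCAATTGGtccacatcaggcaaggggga
Dnajc3, chr14:118937807-118937865, gene on the plus strand, match starting at -105 from the gene's start: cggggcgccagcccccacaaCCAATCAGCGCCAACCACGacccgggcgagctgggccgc
Syvn1, chr19:6046512-6046570, gene on the plus strand, match starting at -44 from the gene's start: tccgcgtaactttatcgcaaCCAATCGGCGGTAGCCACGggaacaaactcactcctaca
Hsp90b1, which encodes the ER chaperone GRP94, held 2 such matches. ERSE-II stood in 12 promoters, 0.0365%, and 2 of them belonged to these genes. One is Dnajb11, in which it lies after the start. The other is Herpud1, a membrane protein of the degradation machinery.
Herpud1, chr8:94386357-94386407, gene on the plus strand, match starting at -52 from the gene's start: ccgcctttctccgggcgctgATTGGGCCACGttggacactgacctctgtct
The element of ATF4 with C/EBP partners, TTNCATCA, stood in 1304 promoters, 3.97%, among them those of Chac1, Nupr1, Asns, Herpud1 and Trib3. The first 4 lie before the start and are shown because Chac1 and Nupr1 passed the test between POL5551 and 2-day G-CSF. The Asns match, which begins with TGATG, lies on the strand opposite to the gene.
Chac1, chr2:119351029-119351076, gene on the plus strand, match starting at -193 from the gene's start: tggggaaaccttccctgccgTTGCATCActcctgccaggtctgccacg
Nupr1, chr7:126625553-126625600, gene on the minus strand, match starting at -110 from the gene's start: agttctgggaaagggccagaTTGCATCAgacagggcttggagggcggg
Asns, chr6:7693210-7693252, gene on the minus strand, match starting at -23 from the gene's start: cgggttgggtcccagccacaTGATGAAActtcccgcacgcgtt
Herpud1, chr8:94386297-94386344, gene on the plus strand, match starting at -112 from the gene's start: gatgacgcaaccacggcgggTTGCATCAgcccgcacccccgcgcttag
The core TGACGTG, held by 2.01% of promoters, was found for Hspa5. No match of one motif overlapped a match of another in these genes. A match is a description of the letters in this window only.

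Levels are log2 signals with each array's 75th percentile set to 0. The signal at that percentile ran from 1901 on sham mouse 1 to 6810 on 5-day G-CSF mouse 1, and precision is limited by there being 1 array per mouse and 3 mice per group. Sham mouse 1 stood apart. Its median over 1537 probes for olfactory, vomeronasal and other genes of other tissues was -1.61, against -3.30 and -3.45 in the other sham mice. That off-tissue median averaged -4.59 ± 0.54 in POL5551, -2.58 ± 0.17 in 2-day and -3.69 ± 0.39 in 5-day G-CSF mice (SD, n = 3), so it moves with the groups. Kit, by which the cells were sorted, was at 3.04 ± 0.17, 3.00 ± 0.17, 2.78 ± 0.16 and 2.67 ± 0.04 in sham, POL5551, 2-day and 5-day mice. The sort markers Ly6a (Sca-1) and Slamf1 were at -1.84 and -4.12 in sham mouse 1 against 0.77 to 0.92 and -1.41 to -0.96 in the other sham mice. Results are given with and without sham mouse 1 where it matters. The 2-day mice had a slide of their own, so slide and 2-day treatment cannot be told apart.

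The widest contrast was between the POL5551 and the 2-day G-CSF mice. Of the 32 genes, 6 passed (limma, adjusted p below 0.05 over all genes), 18.8%, while 30.6% of all genes did. At an unadjusted p under 0.05 it was 16 of the 32, against 49.0% of all genes. Those higher with POL5551 were Ern1 and Psat1, 2 of 32 or 6.25% against 5.87% of all genes. Those lower were Nupr1, Chac1, Dnajc3 and Atf6, 4 of 32 or 12.5% against 24.7%. In bulk RNA a smaller number of cells of one kind and less RNA per cell cannot be told apart.

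Nupr1, a small stress-induced chromatin protein, was at 4.25, 2.92 and 4.33 in the 2-day mice and at 2.13, 1.83 and 1.94 in the POL5551 mice. It was at 2.88, 2.19 and 2.91 in sham and at 2.77, 2.25 and 2.77 in 5-day mice. Every POL5551 mouse was below every other mouse, and 2-day mice 1 and 3 were the highest of all 12. Nupr1 fell by 1.87 ± 0.40 (SE) on the log2 scale from 2-day G-CSF to POL5551, a 3.65-fold difference (limma, adjusted p = 0.0150). The 2-day difference from sham was 1.17 ± 0.40 and did not pass (adjusted p = 0.457). A second Nupr1 probe, dimmer and well above background on 11 arrays, differed by -0.25 between POL5551 and 2-day G-CSF and by -0.24 between 2-day G-CSF and sham. With the mean of both probes the first difference was -0.41 and did not pass (limma, adjusted p = 0.509), so the call is that of 1 probe.

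Chac1 degrades glutathione. Its measured values were -3.27, -3.33 and -3.79 in 2-day mice and -3.85, -3.59 and -4.48 in 5-day mice. The sham mice were at -6.12, -6.94 and -5.15 and the POL5551 mice at -7.44, -4.47 and -7.07. All 3 of the 2-day arrays, 2 of the 5-day arrays, 1 POL5551 array and none of the sham arrays were well above background, so all G-CSF values lie above nearly all others, with 5-day mouse 3 level with POL5551 mouse 2. On the measured values Chac1 passed between POL5551 and 2-day G-CSF (limma, adjusted p = 0.0197). Chac1 met the filter of 3 arrays well above background only through the G-CSF arrays, where it was high. Its call is thus not independent of how it came to be tested. As a bound, the Chac1 level was at least 3.54-fold higher with 2-day G-CSF. For this bound, POL5551 arrays not well above background are set at the lowest signal that was, or at the probe's own where that is higher. The bound itself was not tested. The measured group means were -3.46 and -6.32, and the latter is not an exact level, since only 1 POL5551 array was well above background. Against sham, with each sham array set in the same way, Chac1 was at least 2.54-fold higher at 2 days. At 5 days the same step gave 1.79-fold, which is no strict bound, since only 2 of the 5-day arrays were well above background. On the measured values neither difference from sham passed (limma, adjusted p = 0.370 at 2 days and 0.349 at 5 days).

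Psat1, an enzyme of serine synthesis driven by ATF4, was at 1.54, 2.06 and 1.45 in POL5551 mice and at -0.14, 0.53 and -0.05 in 2-day mice. Sham mice were at -0.53, 0.98 and 1.08, and 5-day mice at 1.11, 1.00 and 0.30. The POL5551 mice were above all 9 others, and sham mouse 1 was the lowest. On this probe Psat1 was higher with POL5551 than with 2-day G-CSF by 1.57 ± 0.45 (SE), 2.96-fold (limma, adjusted p = 0.0289). A second Psat1 probe, also well above background on all 12 arrays, differed by 0.49. There POL5551 mouse 2, at 0.59, lay within the 2-day range of 0.40 to 0.73. With the mean of both probes Psat1 still passed, when 28.5% of all genes did.

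Dnajc3 (p58IPK), a co-chaperone of BiP that also restrains PERK, was at 2.44, 1.94 and 1.92 in 2-day mice and at 0.94, 1.38 and 0.52 in POL5551 mice. It was at 0.95, 1.81 and 1.06 in sham and 1.83, 1.03 and 1.14 in 5-day mice, so the 2-day mice were above all 9 others. Dnajc3 fell by 1.15 ± 0.37 (SE) from 2-day G-CSF to POL5551 (limma, adjusted p = 0.0392). It is the one chaperone of the 14 that passed in any comparison, and its promoter holds the ERSE shown above.

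Of the 3 sensors, 1 was called higher and 1 lower with POL5551, each on 1 probe. Ern1 was at 2.29, 3.02 and 2.49 in POL5551 mice and at 1.1, 1.48 and 1.68 in 2-day mice, with no overlap, and it was higher with POL5551 by 1.18 ± 0.35 (SE; limma, adjusted p = 0.0309). Sham mice, at 2.36, 1.60 and 2.52, overlapped with both groups, and 5-day mice, at 2.19, 2.12 and 1.69, lay between them. Atf6 was at 0.72, 1.33 and 1.01 in POL5551 mice and at 2.13, 2.12 and 1.95 in 2-day mice, and it fell by 1.04 ± 0.34 (SE) from the latter to the former (limma, adjusted p = 0.0407). Sham mice were at 2.30, 1.99 and 1.63 and 5-day mice at 1.97, 1.19 and 2.19. With their RefSeq probes, a setting chosen after seeing the data, these differences were 0.02 for Ern1 and 0.47 for Atf6 and neither passed (limma, adjusted p = 0.946 and 0.303). Eif2ak3 was at 0.84, 1.07 and 0.79 with POL5551, at -0.67, 0.38 and -0.82 at 2 days, at 0.00, 0.41 and 0.15 at 5 days and at -1.26, 0.10 and 0.43 in sham. The POL5551 mice were the 3 highest, but the difference from 2-day mice, 1.27 ± 0.46, did not pass (adjusted p = 0.0547).

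**Figure D1:**
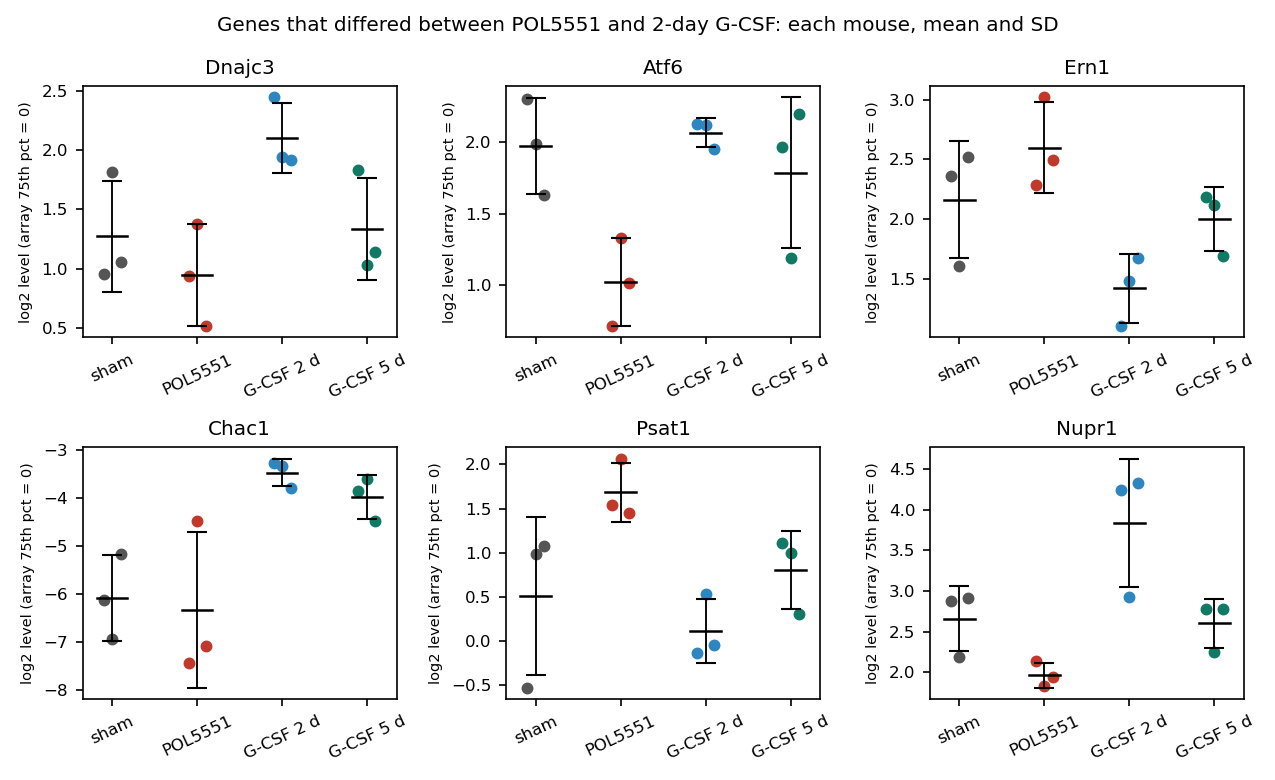
Log2 level (y axis, array 75th percentile at 0) of the 6 genes that differed between POL5551 and 2-day G-CSF, for each mouse by group (x axis). Points are mice, bars the mean and SD of 3. POL5551 mice lie above 2-day mice for Ern1 and Psat1 and below them for Dnajc3, Atf6, Chac1 and Nupr1, with no overlap between the groups.

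These calls rested on few arrays. Without 2-day mouse 1, 2-day mouse 3 or POL5551 mouse 1, 0 of the 32 genes passed (102, 1819 and 209 genes did in all), with 8, 11 and 9 of the 32 at an unadjusted p under 0.05. Without POL5551 mouse 2 the number was 3 (18% of all genes), without POL5551 mouse 3 also 3 (21.5%), and without sham mouse 1, which stood apart, 19, of which 13 were higher with POL5551, while 52.6% of all genes then passed. Without 2-day mouse 2 it was 4 (15.5%). When the off-tissue level was entered as a covariate 0 genes passed (6 of the 32 at an unadjusted p under 0.05), and the differences of Chac1 (fitted on values partly at background, -2.90 ± 1.27), Dnajc3 (-1.66 ± 0.58), Nupr1 (-1.53 ± 0.67) and Ern1 (1.29 ± 0.57) stayed on their side of 0 at adjusted p of 0.515 to 0.559, while Psat1 came to 0.05 ± 0.51 and Atf6 to -0.35 ± 0.48. The part of the off-tissue signal in these results was not tested. The split of the calls moved with the scaling: 11 higher and 2 lower with median scaling, when 25.6% of all genes passed, and 0 higher and 3 lower with quantile normalization, when 17.8% did. The median difference of all genes was -0.20 and -0.25 under these, against -0.65 here. Calls and counts above 0 are taken against 0, not against that median.

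The chaperones and foldases mostly had positive differences with POL5551, none of which passed. Against 2-day G-CSF 12 of the 14 had a difference above 0, as did 36.2% of all genes, with a median of 0.91, beside -0.65 for all genes tested and 0.25 for the 11064 tested genes whose mean level was above 0, as it was for 29 of the 32 genes. Of those 11064 genes 6123 had a difference above 0, a larger share than that of all genes. The groups did not overlap, with POL5551 higher, for 16 of the 32 genes (50%, against 21.8% of all genes), and with POL5551 lower for 8 (25%, against 43.9%). Against sham 12 of 14 chaperones were again above 0, as were 35.9% of all genes and 6111 of those 11064, with a median of 0.78. Without sham mouse 1 it was 10 of 14, with a median of 0.38. With the off-tissue level as a covariate 4 of 14 were above 0 against 2-day G-CSF, with a median of -0.50 and the lowest values for Sdf2l1 (-2.46 ± 0.59) and Calr (-1.85 ± 0.77), and 3 of 14 against sham, with a median of -0.51. In those fits 45.0% and 46.5% of all genes were above 0. The positive direction of the chaperones was thus not kept under that covariate. Its slope rests on the spread within groups, which was widest in sham, where mouse 1 stood apart. The off-tissue SD was 1.02 in sham, against 0.54, 0.17 and 0.39 in POL5551, 2-day and 5-day mice. The covariate fit is therefore not independent of that mouse.

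Hspa5, the main chaperone, was at 3.68, 4.95 and 4.97 in sham mice, 5.07, 4.87 and 4.93 in POL5551 mice, 3.83, 4.51 and 4.61 at 2 days and 4.60, 5.01 and 4.78 at 5 days. Sham mouse 1 and 2-day mouse 1 were the lowest, and the other 10 lay within 4.51 to 5.07. Its difference from sham was 0.42 ± 0.39 with POL5551, -0.22 ± 0.39 at 2 days and 0.26 ± 0.39 at 5 days (SE; lowest adjusted p = 0.399), and without sham mouse 1 these came to 0.00, -0.65 and -0.17. Hsp90b1 (GRP94) was at 0.51, 1.17 and 0.77 in sham, 1.18, 1.91 and 1.08 with POL5551, 0.60, 0.94 and 0.40 at 2 days and 0.87, 0.99 and 0.91 at 5 days. The POL5551 mice were above all 6 G-CSF mice but overlapped with sham mouse 2. Calr, the lectin chaperone calreticulin, was at -0.58, 2.26 and 2.76 in sham, 3.15, 2.21 and 3.00 with POL5551, 2.04, 2.31 and 2.03 at 2 days and 2.66, 2.60 and 2.86 at 5 days. Sham mouse 1 was far below the other 11. The difference between POL5551 and sham was 1.31 ± 0.69 with it and 0.28 without.

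**Figure D2:**
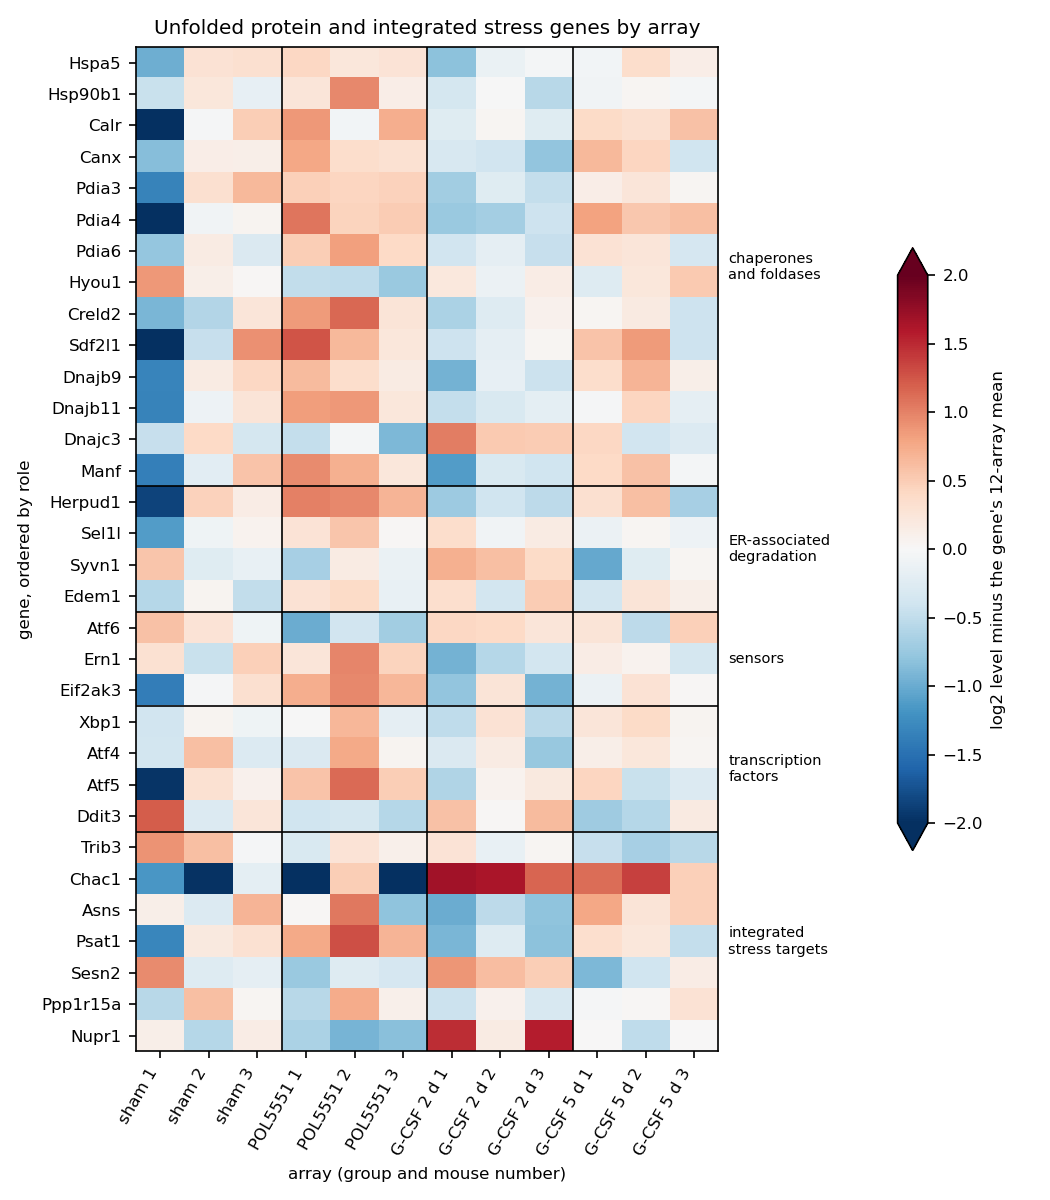
Each cell is 1 gene on 1 array: the log2 level minus that gene's mean over the 12 arrays (colour, from -2 to 2, deeper values capped). Rows are the 32 genes by role, columns the mice by group. Sham mouse 1 is low for most chaperones (median -1.15), the 2-day mice are below the mean and the POL5551 mice above it, while Chac1, Nupr1, Dnajc3 and Sesn2 are high at 2 days. Sesn2 is highest in sham mouse 1 (0.94), and Nupr1 in 2-day mouse 2 is only 0.16 above its mean.

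Against sham, 0 of the 32 genes passed with POL5551, where 2.28% of all genes did. At an unadjusted p under 0.05 there were 10 (31.2%, against 35.0% of all genes): Pdia4, Pdia6, Creld2, Dnajb11, Herpud1, Atf5, Eif2ak3 and Psat1 with a positive difference and Hyou1 and Atf6 with a negative one. The groups did not overlap for 8 genes that were higher (25%, against 10.6% of all genes) and 5 that were lower (15.6%, against 25.9%). The median difference over the 32 was 0.54, with 22 above 0, beside -0.52 and 35.9% above 0 for all genes and 0.17 for the genes with a mean level above 0. Of the latter, 6111 of 11064 were above 0. Within slide 1, which held sham mouse 1 and POL5551 mouse 1, the median was 1.06, and within slide 2, with sham mice 2 and 3 and POL5551 mouse 2, it was 0.49. Without sham mouse 1 the median over all arrays was 0.23.

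The largest positive differences from sham were those of Sdf2l1 and Pdia4. Sdf2l1, a partner of BiP and its co-chaperones, was at -0.44, 2.13 and 3.51 in sham and 3.86, 3.24 and 2.82 with POL5551, a difference of 1.57 ± 0.79 (SE; limma, adjusted p = 0.168) that came to 0.48 without sham mouse 1. It was at 2.19, 2.43 and 2.64 at 2 days and 3.16, 3.45 and 2.18 at 5 days, and each treated group overlapped with sham. Pdia4, a disulfide isomerase, was at -1.84, 0.22 and 0.35 in sham, 1.35, 0.73 and 0.79 with POL5551, -0.46, -0.38 and -0.13 at 2 days and 1.1, 0.82 and 0.89 at 5 days. The POL5551 and the 5-day mice were above all sham and all 2-day mice. The difference was 1.38 ± 0.51 (SE) with POL5551 (limma, adjusted p = 0.102) and 1.36 ± 0.51 at 5 days (adjusted p = 0.386), and 0.67 and 0.65 without sham mouse 1. Without sham mouse 3, Pdia4, Creld2 and Sdf2l1 did pass in the POL5551 comparison, the one leave-out that gave a call against sham, when 14.1% of all genes passed. In that fit the sham mean rests on mouse 2 and on mouse 1, which stood apart and thus weighs more.

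The largest negative differences from sham with POL5551 were those of Atf6 (-0.95 ± 0.34, limma adjusted p = 0.0979), whose values stand above and whose RefSeq probe gave 0.51, and Hyou1 (-0.92 ± 0.33, adjusted p = 0.0978). Hyou1, an ER chaperone that exchanges nucleotide on BiP, was at 1.47, 0.72 and 0.63 in sham, 0.11, 0.09 and -0.13 with POL5551, 0.81, 0.48 and 0.75 at 2 days and 0.34, 0.83 and 1.12 at 5 days. The POL5551 mice were below all others. This pattern was that of 1 of its probes, as described further on.

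**Figure D3:**
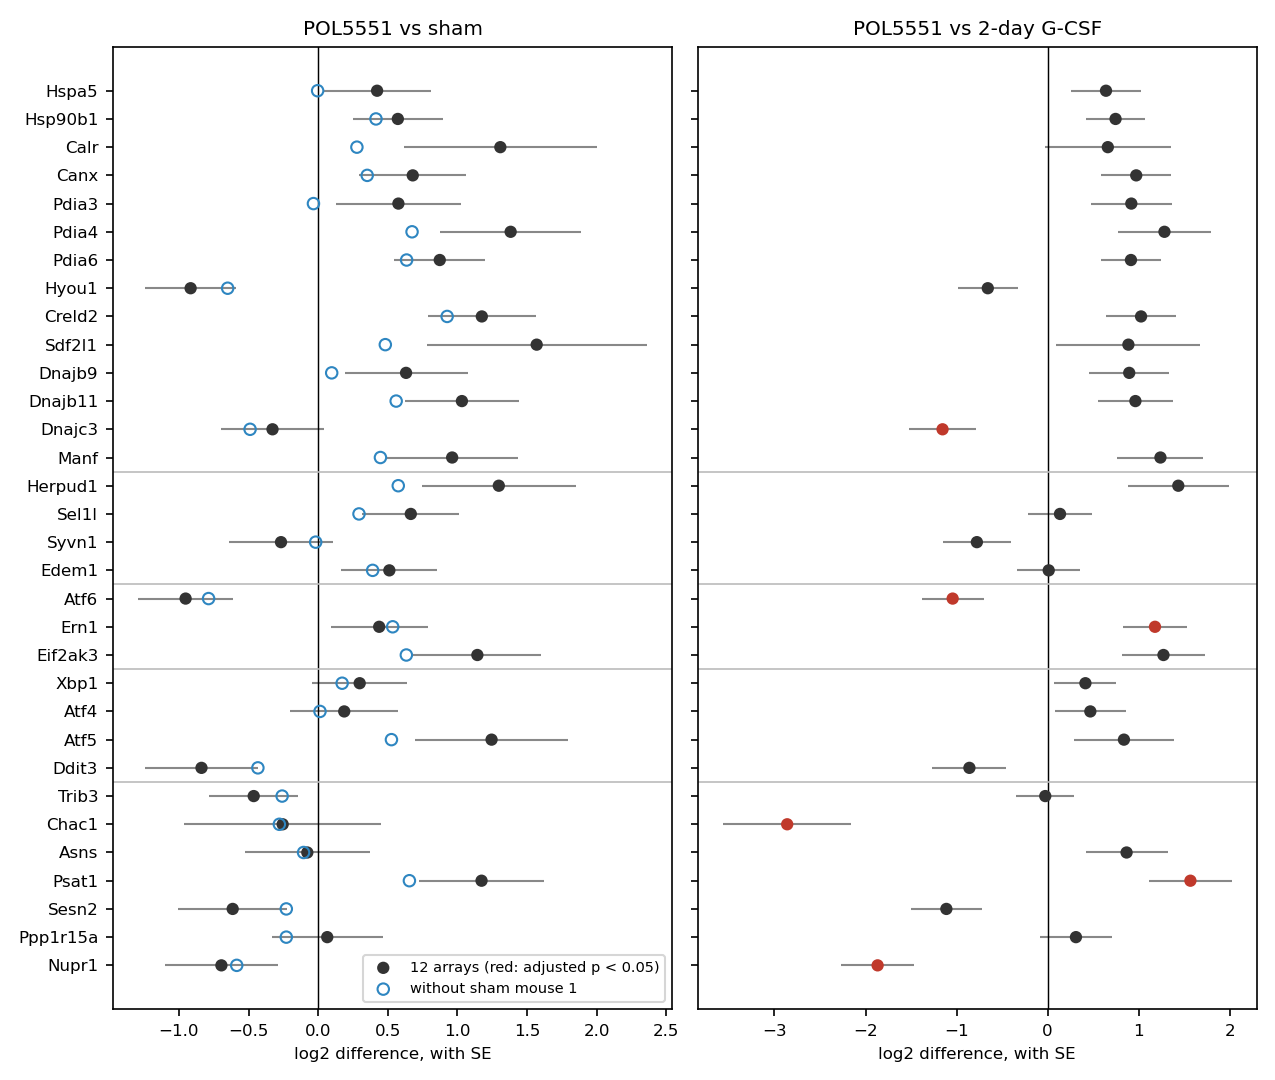
Log2 difference with its SE (x axis) for the 32 genes by role (y axis), POL5551 against sham on the left and against 2-day G-CSF on the right. Filled points use 12 arrays, red where the adjusted p was below 0.05, and open points leave out sham mouse 1. No gene is red on the left, 6 are on the right, and on the left most open points lie nearer to 0, with the median there going from 0.54 to 0.23.

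G-CSF gave no call against sham among these genes at either time, where 0.0331% of all genes passed at 2 days and 0.0663% at 5 days. At an unadjusted p under 0.05 there were 3 genes at 2 days (Chac1, Nupr1 and Dnajc3) and 3 at 5 days (Chac1, Pdia4 and Trib3), 9.38% each against 9.12% and 11.1% of all genes. The median difference from sham was -0.08 at 2 days, with 15 of 32 above 0 against 57.0% of all genes, and 0.33 at 5 days, with 24 above 0 against 42.5%. Without sham mouse 1 these medians were -0.36 and -0.03. Of the 11064 genes with a mean level above 0, 6048 at 2 days and 6001 at 5 days were above 0 on all arrays.

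At 2 days the largest positive differences after Chac1 and Nupr1 were below 1. The largest negative ones were those of Asns and Ern1 (-0.74 ± 0.35, adjusted p = 0.557). Asns, asparagine synthetase and a classic ATF4 target, was at 0.38, -0.02 and 0.94 in sham, -0.73, -0.26 and -0.54 at 2 days, 1.04, 0.52 and 0.73 at 5 days and 0.28, 1.32 and -0.54 with POL5551. The 2-day mice were below all sham and all 5-day mice, with a difference from sham of -0.94 ± 0.45 (SE; limma, adjusted p = 0.563). At 5 days the largest negative differences were those of Trib3 and Ddit3. Trib3, a pseudokinase that feeds back on ATF4, was at 0.65, 0.35 and -0.28 in sham and -0.71, -0.92 and -0.81 at 5 days, below all 9 other mice, against 0.02, -0.40 and -0.21 at 2 days and -0.56, 0.03 and -0.14 with POL5551. Its difference was -1.05 ± 0.32 (SE; limma, adjusted p = 0.327).

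Between 5 and 2 days of G-CSF 0 of the 32 genes passed, as did 0.0% of all genes (limma), with 5 of the 32 at an unadjusted p under 0.05 (15.6%, against 16.2% of all genes). Asns (1.28 ± 0.45) and Pdia4 (1.26 ± 0.51) had positive differences and Nupr1 (-1.23 ± 0.40), Sesn2 (-1.05 ± 0.39) and Syvn1 (-0.97 ± 0.37) negative ones, at adjusted p of 0.251 to 0.279. Sesn2 encodes the stress protein sestrin 2 and Syvn1 (HRD1) the ubiquitin ligase of ER-associated degradation. Of the 14 chaperones 13 had a positive difference, against 39.0% of all genes, with a median of 0.50. Among the 11064 genes with a mean level above 0, 5940 had one, with a median of 0.07. Between POL5551 and 5-day G-CSF 0 of the 32 passed and 0.0603% of all genes did, with 3 at an unadjusted p under 0.05 (Hyou1, Atf6 and Chac1, 9.38% against 11.6% of all genes). The median there was 0.18, with 21 above 0 against 37.0% of all genes, and within slide 5, which held 1 mouse of each, it was -0.03. Of the 11064 genes with a mean level above 0, 5947 were above 0 there, with a median of 0.07. Over the 4 groups the F test called 0 of the 32 and 1.35% of all genes, with 8 of the 32 (25%) against 34.0% of all genes at an unadjusted p under 0.05. Chac1 (adjusted p = 0.0611) and Nupr1 (0.0668) had the lowest values.

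None of the transcription factors passed in any comparison. Xbp1 was at 1.16, 1.60 and 1.46 in sham, 1.53, 2.21 and 1.37 with POL5551, 1.04, 1.82 and 1.00 at 2 days and 1.79, 1.92 and 1.60 at 5 days, and the array does not separate its spliced form. Its differences from sham were 0.30, -0.12 and 0.37, each with an SE of 0.34 and an adjusted p of 0.499 or more. Its dimmer probes gave 0.41 and 0.74 with POL5551, 0.65 and 0.83 at 2 days and 1.121 and 1.315 at 5 days. Sham mouse 1 was the lowest on each of those. Atf4 was at 2.10, 3.06 and 2.19 in sham, 2.17, 3.23 and 2.51 with POL5551, 2.17, 2.63 and 1.71 at 2 days and 2.58, 2.69 and 2.51 at 5 days, and all groups overlapped. Its differences from sham, with an SE of 0.39, lay between -0.28 and 0.19. Atf4 is governed largely at translation, which these arrays do not measure. Atf5 had a larger difference with POL5551 (1.25 ± 0.55, adjusted p = 0.136) and 0.41 and 0.42 at 2 and 5 days. Without sham mouse 1 these 3 came to 0.53, -0.31 and -0.30.

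The 7 integrated stress targets did not move as one group. With POL5551 against sham 2 of 7 were above 0, with a median of -0.26 and a range from -0.70 for Nupr1 to 1.17 for Psat1. Against 2-day G-CSF their median was -0.03, with 1 higher call (Psat1) and 2 lower (Chac1 and Nupr1). Ppp1r15a (GADD34), which reverses eIF2 phosphorylation, lay within -0.25 to 0.07 of sham in every group. The degradation genes held no call. Herpud1 had the largest difference among them, 1.44 ± 0.55 against 2-day G-CSF (adjusted p = 0.0649) and 1.30 ± 0.55 against sham (adjusted p = 0.129), which came to 0.57 without sham mouse 1, and Edem1 and Sel1l lay within 0.14 of the 2-day mice. A second Herpud1 probe, well above background on all 12 arrays, differed with POL5551 by only 0.24 from 2-day mice and 0.10 from sham.

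**Figure D4:**
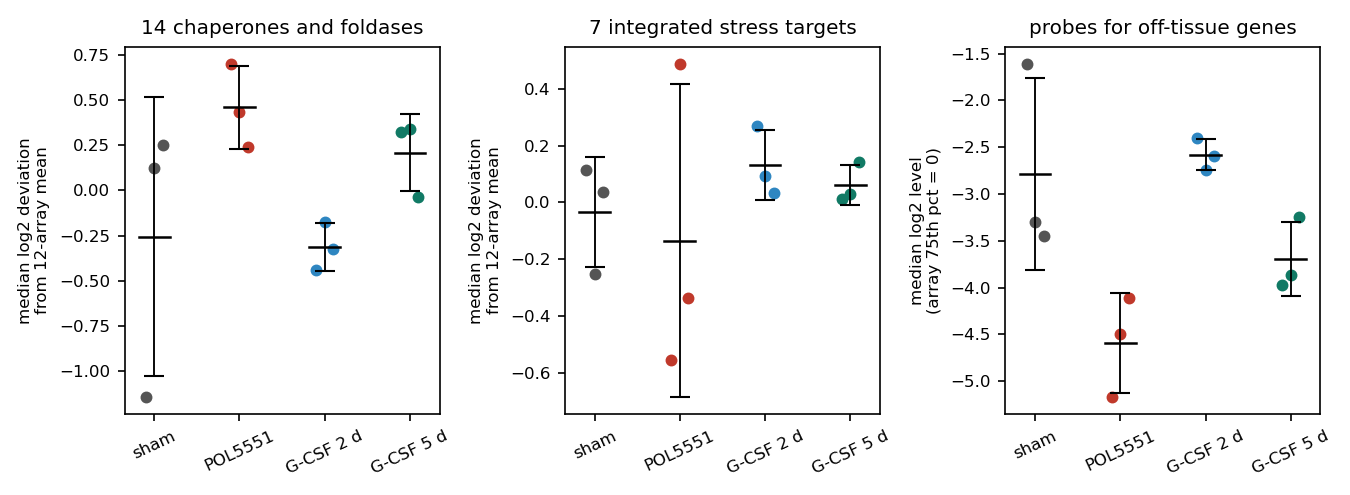
Median log2 deviation from the 12-array mean (y axis) over the 14 chaperones and foldases and over the 7 integrated stress targets, and the median log2 level of probes for off-tissue genes, for each mouse by group (x axis), with mean and SD of 3. The chaperone median is 0.46 ± 0.23 in POL5551 and -0.31 ± 0.13 in 2-day mice, and sham mouse 1 is lowest at -1.15. The same mouse has the highest off-tissue level, -1.61, and the POL5551 mice the lowest.

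Of the 10 genes with an ERSE or ERSE-II in the promoter, 8 had a difference above 0 against sham with POL5551, with a median of 0.78, and of the 19 with a promoter but neither element 13 did, with a median of 0.44. The exceptions among the 10 were Dnajc3 (-0.33) and Syvn1 (-0.27), both of which carry the full element printed above. Without sham mouse 1 it was 7 of 10 and 11 of 19, with medians of 0.38 and 0.10. With the off-tissue covariate it was 4 of 10 and 5 of 19, with medians of -0.34 and -0.19. Against 2-day G-CSF the medians were 0.83 and 0.47, and -0.36 and -0.06 with that covariate. At 2 days against sham they were 0.01 and -0.12, and at 5 days 0.36 and 0.32. The ranges of both classes overlapped in each comparison. The classes differ in role too, since all of the 10 but Syvn1 and Herpud1 are chaperones. The chaperones with a promoter but neither element were Pdia3, Pdia4, Sdf2l1 and Dnajb9. With POL5551 they differed from sham by 0.58, 1.38, 1.57 and 0.63. The part of the element apart from role was not tested. The ATF4 element was held by 5 genes, of which Chac1 and Nupr1 were called lower with POL5551 than with 2-day G-CSF. The other holders, Asns, Herpud1 and Trib3, differed by 0.87, 1.44 and -0.03 in that comparison. Between 2-day G-CSF and sham they differed by -0.94, -0.14 and -0.44.

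Several genes had more than 1 probe, and the choice among them decided some directions. In all, 21 genes had 2 or more probes tested, and for 9 of these the probes took opposite signs in POL5551 against sham. Ddit3 (CHOP) was read from a probe for an Ensembl transcript at chr10:126731579-126731638 (mm9), at 7.35, 5.88 and 6.39 in sham, 5.75, 5.79 and 5.58 with POL5551, 6.73, 6.17 and 6.78 at 2 days and 5.43, 5.57 and 6.32 at 5 days. The POL5551 mice were below all sham and 2-day mice, with differences of -0.84 ± 0.41 and -0.86 ± 0.41. Its other probe, for the RefSeq mRNA at chr10:126732518-126732821, was at -2.98, -1.39 and -2.43 in sham, -1.16, -2.09 and -1.44 with POL5551, -2.59, -3.18 and -2.71 at 2 days and -1.79, -1.86 and -1.72 at 5 days. There the 2-day mice overlapped only with sham mouse 1. In a fit with RefSeq probes, chosen after seeing the data, Ddit3 was higher with POL5551 than with 2-day G-CSF by 1.26 (adjusted p = 0.0442). The direction of Ddit3 is therefore not settled by these arrays.

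For Atf6 the probe reported above lies on an Ensembl transcript at chr1:172722478-172722537, and the probe for the RefSeq mRNA, at chr1:172637679-172637738, had a difference of 0.47 instead of -1.04 between POL5551 and 2-day G-CSF (adjusted p = 0.303). The lower level of Atf6 is thus that of 1 probe. The brightest pair of the 4 Hyou1 probes lies on the same RefSeq mRNA. The one reported differed by -0.92 from sham with POL5551 and the other, at -1.52, 0.32 and 0.59 in sham and 1.70, 0.51 and 0.99 with POL5551, by 1.27. Ern1 was read from a probe for an Ensembl transcript, and its RefSeq probe differed by 0.02 between POL5551 and 2-day G-CSF, so its call too belongs to 1 probe. The 3 probes of Hspa5 gave 0.64, 0.69 and 0.66 in that comparison, and 0.42, 0.80 and -0.14 between POL5551 and sham.

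**Figure D5:**
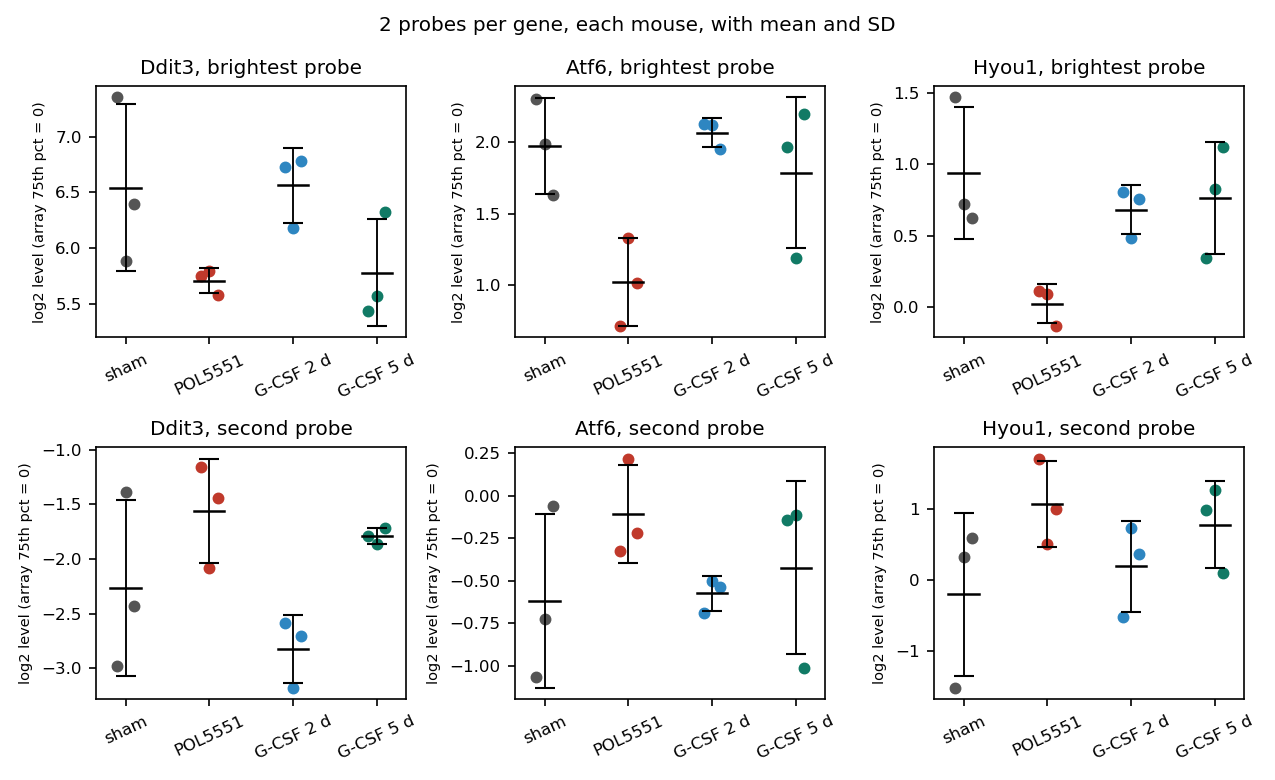
Log2 level (y axis, array 75th percentile at 0) of the brightest and the second probe of Ddit3, Atf6 and Hyou1, for each mouse by group (x axis), with mean and SD of 3. In the upper row the POL5551 mice are low, with differences from sham of -0.84, -0.95 and -0.92, and in the lower row their means are above those of sham, by 0.70, 0.51 and 1.27.

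The rest of the pathway was followed in 7 further gene lists. None of their 213 tested genes passed (limma) against sham, between the G-CSF times or between POL5551 and 5-day G-CSF. At an unadjusted p under 0.05 there were 71 with POL5551 against sham (33.3%, against 35.0% of all genes), 14 and 13 at 2 and 5 days of G-CSF against sham (6.57% and 6.1%, against 9.12% and 11.1%), 22 between those times (10.3%, against 16.2%) and 12 between POL5551 and 5 days (5.63%, against 11.6%). Genes named below beyond the extremes of a list were named after their values were seen. Between POL5551 and 2-day G-CSF 30.6% of all genes passed, 5.87% higher and 24.7% lower, and 36.2% had a difference above 0. Among the 11064 genes with a mean level above 0, 6123 did so in that comparison. There 4 of 36 other ER chaperones and foldases were higher (Txndc5, Ero1a, Erp44 and Hspa13) and 4 lower (Pdia5, Txndc12, Fkbp14 and Clgn), with a median of 0.84. The largest were the disulfide isomerases Txndc5 (2.06 ± 0.45 SE, limma adjusted p = 0.0151) and Pdia5 (-3.06 ± 0.65, adjusted p = 0.0145). Of 36 genes of translocation and glycosylation 6 were higher and none lower, and all 36 had a difference above 0, from 0.37 for Dpagt1 (adjusted p = 0.512) to 1.54 for the signal peptidase subunit Sec11c (adjusted p = 0.0534). Of 28 other degradation genes 7 were higher and none lower, with the lectin Erlec1 at 1.88 ± 0.40 (adjusted p = 0.0144) and Rnf5 at -0.07 (adjusted p = 0.858).

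Of 30 other sensors, proteases and eIF2 genes 1 was higher, the site-2 protease gene Mbtps2, and 1 lower. The lower was Eif2s1, the subunit of eIF2 that the stress kinases phosphorylate, at -2.27 ± 0.61 (SE; limma, adjusted p = 0.0233), and the largest positive difference was that of Tmbim6 (1.41, adjusted p = 0.240). Of 34 other ATF4 and CHOP targets 4 were higher (Mthfd1l, Ddit4, Vegfa and Niban1) and 4 lower (Pycr1, Cbs, Gdf15 and Jdp2), with at the ends the mitochondrial folate enzyme Mthfd1l (2.39 ± 0.57, adjusted p = 0.0185) and the repressor Jdp2 (-2.16 ± 0.40, adjusted p = 0.0129). Of 20 cytosolic aminoacyl-tRNA synthetases 6 were higher, with Mars1 at 2.49 ± 0.57 (adjusted p = 0.0165) and 1 was lower, Dars at -0.98 ± 0.32 (adjusted p = 0.0413). Mars1 was well above background on only 2 of the 2-day arrays, so the size of its difference is not exact. Of 29 cytosolic and mitochondrial heat shock genes 5 were higher (Hspa4l, Hsp90aa1, Dnaja2, Hspd1 and Clpp) and none lower, with Trap1 at 1.77 (adjusted p = 0.0776) and Chordc1 at -0.85 (adjusted p = 0.0866) at the ends. The calls in these lists stood beside the same shift in off-tissue probes, and with that level as a covariate 0 of all genes passed.

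Plasma cells are rich in these chaperones, so their markers were read beside them. The summed level of a list is the log2 of its genes' linear signals added up, so the brightest markers weigh most. For the 10 plasma cell markers it was 1.86 to 2.48 in POL5551 mice, 1.97 to 3.26 in sham, 2.62 to 2.86 at 2 days and 2.17 to 2.69 at 5 days. Of these markers 3, Sdc1, Mzb1 and Fcrl5, were lower with POL5551 than with 2-day G-CSF, when 24.7% of all genes were. The plasma cell marker median against sham with POL5551 was -0.90, beside -0.52 for all genes and 0.78 for the chaperones. The 10 B lymphoid markers summed to 5.65 to 5.79 with POL5551, below the 6.30 to 7.46 of sham and the 6.75 to 7.15 of 2-day mice. Some other marker lists had positive medians in that comparison, as the chaperones did: 0.76 for megakaryocyte, 0.74 for stromal and osteoblast, 0.50 for neutrophil, 0.42 for stem cell and sort and 0.19 for endothelial markers. The rest had negative ones: -0.89 for T and NK, -0.625 for B lymphoid, -0.31 for erythroid (4 of 9 above 0) and -0.28 for macrophage and monocyte markers. The summed levels in POL5551 mice were 4.41 to 5.75 for the stromal and osteoblast, 2.95 to 3.06 for the endothelial and 2.99 to 3.35 for the erythroid list, above the sham ranges of 3.37 to 4.14, 2.24 to 2.76 and 2.23 to 2.79. The megakaryocyte and neutrophil lists, at 3.87 to 4.12 and 2.77 to 3.93 with POL5551, overlapped with the 3.01 to 4.12 and 2.37 to 3.54 of sham. The part of other cells in the levels of the 32 genes was not tested.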

How the data were processed

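Single-colour (Cy5) Agilent arrays of 12 mice, 3 per group, were used. Spot intensity in the scanner files was, per the file headers, background-subtracted by Agilent Feature Extraction 11.5.1.1 (named in the submitters' processing notes too) with no scaling between arrays. The deposited table holds normalized intensity on a linear scale for 49665 probes, each column with a median of 1080. Its tool is not given in the sources used here. The deposited columns of the POL5551 mice and of 5-day mice 2 and 3 followed the scanner file of another mouse of the same group. Groups are unaffected, and mouse numbers here are those of the scanner files.

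The log2 of processed intensity minus the array's 75th percentile was used, with outlier spots left out. Probes well above background on at least 3 arrays were tested, and each gene took its brightest one. The test was that of limma 3.58.1 under R 4.3.3 (group means, 12 arrays, 8 residual and 3.23 prior degrees of freedom), two-sided, Benjamini-Hochberg adjusted over 33191 genes, threshold 0.05. With 3 mice a side an exact test reaches 0.1 at best, so p-values rest on limma's pooled spread between mice. Replicate numbers did not pair the mice. The procedure was tested on simulated data.

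Per-mouse values are given for genes that passed anywhere, for 10 anchor genes and for the 2 largest differences per direction against sham. Of the pathway lists, the extreme genes of the contrast with most calls are named. The members and lists were chosen with earlier results of these data known. Probe positions are mm9, promoters GRCm38.p6 from RefSeq. Protein sequences were not used here.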

Additional observations from a re-analysis of the deposited data

How the results depend on the processing

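In POL5551 against 2-day G-CSF, the 6 calls became 3 with quantile normalization (17.8% of all genes passed) and 3 with the authors' deposited values (18.6%), 13 with median scaling (25.6%), 12 of 31 with only probes well above background on all 12 arrays (40.4%), and 0 with the off-tissue covariate. Leaving out 1 array gave 0 to 19. Against sham, POL5551 gave 0 to 3 when 1 array was left out and 0 under every other setting. The F test gave 1 with normexp and 1 with the strict background filter, and 0 to 6 when 1 array was left out.

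The median difference over the 32 genes moved with median scaling to 0.94 (POL5551 against sham) and 1.15 (against 2-day G-CSF). With the off-tissue covariate it was -0.25, -0.09, -0.16, -0.16 and -0.24 for POL5551 against sham, 5-day G-CSF against sham, 5 against 2 days, POL5551 against 5 days and against 2 days. With slide as a fixed block it was 0.92 for 5-day G-CSF against sham. No slide held mice of both groups, so that value runs through POL5551 and rests on 5-day mouse 2 alone. Leaving out 1 array gave 0.23 to 0.73 (POL5551 against sham), -0.029 to 0.52 (5-day G-CSF against sham), 0.28 to 0.48 (5 against 2 days), 0.08 to 0.29 (POL5551 against 5 days) and 0.56 to 0.82 (against 2 days).

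Of the genes that passed before or after a change of probe, 3 took the opposite sign in POL5551 against 2-day G-CSF: Atf6 (0.47) and Ddit3 (1.26) with RefSeq probes, a setting chosen after seeing the data, and Ern1 (-0.28) with the mean of its probes. With the off-tissue covariate, where none passed, 21 of the 32 took the opposite sign, and the number above 0 went from 23 to 12. The cause was not tested. With the replicate block, which pairs mice that share only a number (correlations of -0.31 to 0.26), 5 of the 6 genes passed and Atf6 did not. With slide as a random block all 6 passed. Fixed slide blocks could be fitted for 3 comparisons only. Chac1 is limited by signal over background on 6 arrays.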
